A study of Mus musculus with 15 samples.

Results

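Daily prednisone was compared with vehicle in the quadriceps of DBA/2J-mdx mice, all male. They lack dystrophin because of the mdx mutation, and they model Duchenne muscular dystrophy. The members are 10 of the 15 RNA sequencing libraries of the study, 5 labelled as daily and 5 labelled as vehicle, compared over every row with a gene symbol and at least 1 CPM (a read count scaled to the size of its library) in 5 or more libraries. That left 14059 of 14272 named genes. Daily mice had prednisone at 1 mg/kg by intraperitoneal injection 7 times a week, and vehicle mice had DMSO, the solvent, on the same schedule. Another 5 libraries, from mice given 1 prednisone dose of 1 mg/kg each week with vehicle on the other days, entered the filter on low values and the scaling, and serve otherwise for levels set beside those of daily and for the test of the regimens' difference. Mice of all groups carry the mdx mutation, so no healthy muscle is included. Age is given as 6 months in the extraction protocol and as about 7 months in the sample characteristics. The sources used here do not give the treatment length, the hour of collection or the time since the last dose. Nor is it stated that each library came from its own animal. The p-values therefore rest on the spread between these libraries alone, and that spread may be technical.

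Prednisone is converted to prednisolone, which binds the glucocorticoid receptor. The bound receptor enters the nucleus, raises transcription of genes near its response elements and restrains inflammatory transcription factors such as NF-kappaB. In skeletal muscle, glucocorticoids are known for inducing genes of protein breakdown and amino acid release and for acting on glucose and lipid use. In dystrophic muscle, fibres break and regenerate repeatedly, and macrophages and fibrous tissue accumulate. Bulk tissue was sequenced, so fewer cells of a type and less RNA per cell cannot be told apart in any result that follows.

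Recovered depth was 8215006 to 9040737 reads in the vehicle libraries and 4778253 to 7361026 reads in the daily libraries. Levels are given as CPM scaled between libraries by the trimmed mean of M-values (TMM), a method that sets the typical gene equal across libraries. Daily 3 stood apart. Gm26924, a locus that overlaps ribosomal RNA sequence, took 20.5% of its reads, against 0.140% to 3.02% in the other daily libraries and 0.128% to 0.194% in the vehicle libraries. Lars2, whose transcript holds a ribosomal-RNA-like stretch, took another 7.79% of daily 3. Its TMM factor was 0.653, against 0.952 to 1.03 in the other daily libraries. Main counts of called genes against vehicle are therefore given with daily 3, and also without it wherever that changes them. Other counts, such as those above a fold threshold or of genes without overlap, include daily 3 unless stated. The vehicle libraries were unusually alike. The biological coefficient of variation, the spread beyond counting noise, was 3.57% among them, 9.40% among the daily libraries and 8.27% among the daily libraries without daily 3. Averaging the 5 vehicle libraries into 1 sample, assumed to vary like the daily libraries, gives a stricter count that is printed beside the main one. Muscle fibre genes were abundant. Acta1, skeletal muscle actin, was at 17073 to 18032 TMM-scaled CPM in the vehicle libraries and 11278 to 14128 in the daily libraries (adjusted p = 2.5e-05, 0.38 when averaged).

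With limma on log2(TMM-scaled CPM + 0.5) and an adjusted p under 0.05, 2108 genes rose and 2001 fell in daily libraries, which is 15% and 14.2% of the genes tested. Counts of called list members below are to be read beside these shares. Without daily 3, 2138 rose (15.2%) and 2062 fell (14.7%), 4200 in all (29.9%), and 1942 and 1840 of these were also called in that direction with it. With the vehicle libraries averaged, 488 rose (3.47%) and 308 fell (2.19%), and each of them was called in the same direction in the main comparison. Rising genes made up 51.3% of the calls. On the scale the authors deposited, where the reads of daily 3 count in full, 688 rose (4.89%) and 997 fell (7.09%), which puts rising genes at 40.8% of the calls. On that scale without daily 3, 2372 rose and 1551 fell, so that rising genes were 60.5%. Most changes were small. The median log2 change over all genes was 0.0024, and the middle 90% lay between -0.48 and 0.61. Of the called genes, 724 rose and 431 fell by more than 1.5-fold, and 203 rose and 113 fell by more than 2-fold. All 5 daily libraries lay above all 5 vehicle libraries for 1419 genes (10.1%) and below them for 1345 genes (9.57%). Median changes of the inflammatory, heat shock, glycolysis, membrane repair, TGF-beta and endothelial lists, described below, turned sign on the deposited scale. Those of the insulin, glycolysis and endothelial lists, all near 0, turned without daily 3. No direction is given for any of these 7 lists.

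**Figure D1:**
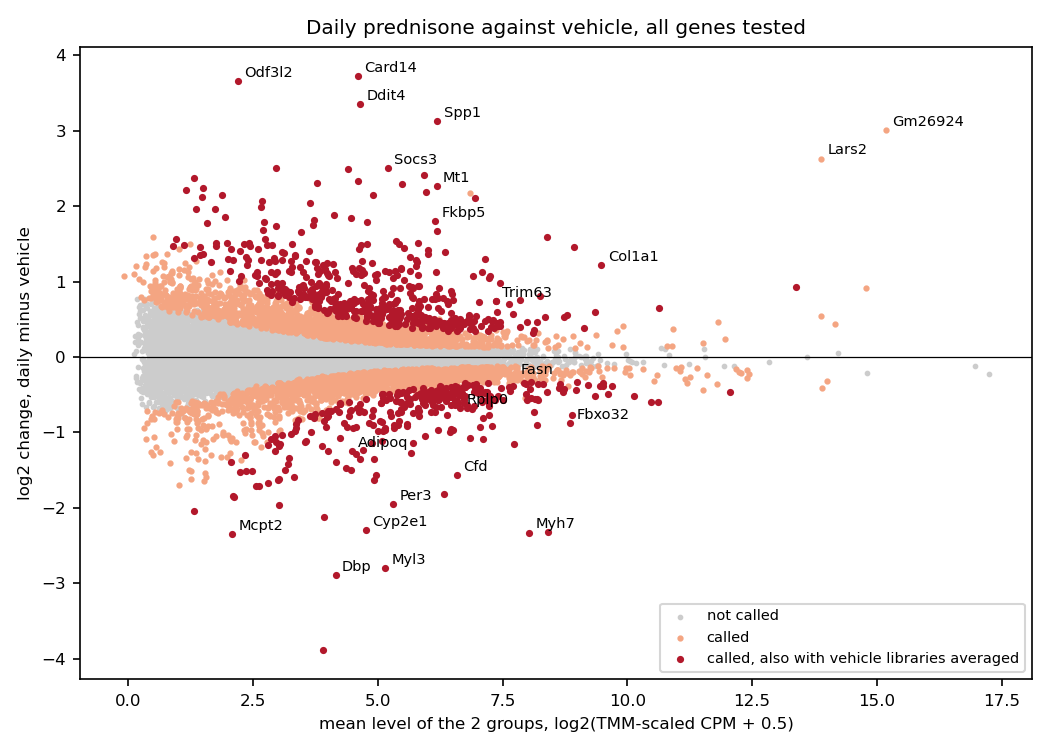
Log2 change of daily minus vehicle (vertical axis) against the mean level of both groups (horizontal axis, log2 of TMM-scaled CPM + 0.5) for the genes tested. Of the 14059, those whose symbol occurs more than once or was turned into a date are not drawn. Orange and red points are called genes, and red points are also called when the vehicle libraries are averaged (796 over all genes tested). Card14 is the highest labelled gene and Dbp the lowest, the unlabelled point beneath it is the predicted gene Gm24119, and Gm26924 and Lars2 at the right are the ribosomal RNA signal that is largest in daily 3.

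The gene with the largest rise was Card14 (chr11:119307768-119345375, GRCm38), which encodes a scaffold protein that activates NF-kappaB signalling. Its level was 2.96, 2.04, 3.05, 2.61 and 3.92 in the vehicle libraries and 39.5, 54.1, 35.3, 40.4 and 54.0 in the daily libraries, replicates 1 to 5 in order here and below. No daily library came near the vehicle range, and the log2 change was 3.73 ± 0.13 (SE, adjusted p = 2.2e-23). Odf3l2, an outer dense fibre protein gene, had 1, 1, 1, 5 and 0 reads in the vehicle libraries and 70, 50, 30, 38 and 59 reads in the daily libraries. Those vehicle counts lie around the floor of 3 reads, so no fold is given. Rrad, a small GTPase that restrains calcium channels, went from 14.8 ± 1.64 to 73.9 ± 4.61 (mean ± SD, n = 5 each), a log2 change of 2.29 ± 0.076 (adjusted p = 3.7e-24). Gadd45g, a stress-response gene, went from 7.60 ± 1.52 to 39.8 ± 2.80, and Sphk1, which makes sphingosine 1-phosphate, from 1.86 ± 0.624 to 12.6 ± 2.35. Mmp13, an interstitial collagenase, was at 0.123, 0.240, 0.705, 0 and 0.115 in the vehicle libraries and rose in the daily libraries to 1.23, 2.11, 3.56, 3.48 and 8.30. Its highest vehicle value lay below its lowest daily value. Cyp2e1, a cytochrome P450 enzyme, was among the largest falls, with 43.2, 47.8, 43.7, 40.4 and 45.8 in the vehicle libraries and 11.9, 7.50, 7.59, 6.97 and 10.04 in the daily libraries and a log2 change of -2.29 ± 0.10 (adjusted p = 6.6e-20). Gpr81, a lactate receptor of fat cells, fell from 3.51 ± 0.307 to 0.487 ± 0.177. Greb1, an oestrogen-responsive gene, and F7, coagulation factor VII, both chosen after their values were seen, rose from 4.24 ± 0.361 to 19.7 ± 5.32 and from 0.479 ± 0.356 to 4.17 ± 1.77.

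Most receptor targets rose. Of 30 tested members of a list of the glucocorticoid receptor and its known targets, 24 rose and 3 fell (median log2 change 0.75). Without daily 3, 23 rose and 3 fell, and with the vehicle libraries averaged there were 20 that rose and 2 that fell. Every daily library lay above the vehicle range for 24 members and below it for 3, against 10.1% and 9.57% of all genes tested. The list was chosen with earlier results of these data known. Fkbp5 (chr17:28399094-28517527), a co-chaperone that limits receptor activity, was at 37.0, 30.4, 28.1, 30.02 and 30.3 in the vehicle libraries and 107, 106, 116, 107 and 111 in the daily libraries. The lowest daily library lay far above the highest vehicle library, with a log2 change of 1.80 ± 0.063 (adjusted p = 1.9e-23) and 1.78 without daily 3. Ddit4 (chr10:59949669-59951834), an inhibitor of the growth kinase mTORC1, was at 4.31, 3.96, 4.46, 4.08 and 3.11 in the vehicle libraries and 46.5, 42.1, 52.4, 42.0 and 42.2 in the daily libraries, a log2 change of 3.35 ± 0.11 (adjusted p = 1.5e-24). Tsc22d3, the glucocorticoid-induced leucine zipper that restrains inflammatory signalling, was at 158, 177, 174, 166 and 178 in the vehicle libraries and 292, 302, 298, 297 and 249 in the daily libraries, and daily 5 was the lowest of the daily libraries. Its log2 change was 0.75 ± 0.051 (adjusted p = 7.9e-15).

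Other rising members included the kinase gene Map3k6 (from 5.85 ± 0.478 to 35.2 ± 3.63), the arrestin-domain gene Arrdc2 (from 4.14 ± 0.688 to 22.2 ± 1.36) and the cell cycle inhibitor Cdkn1a (from 20.5 ± 0.793 to 60.7 ± 2.79). Klf15, a transcription factor of amino acid and lipid use, rose from 20.6 ± 1.74 to 35.0 ± 2.30, a log2 change of 0.75 ± 0.077 (adjusted p = 4.2e-10). Glul, glutamine synthetase, rose from 149.9 ± 3.70 to 244 ± 20.2. Klf9, a transcription factor that glucocorticoids induce, rose from 76.1 ± 1.92 to 87.4 ± 3.51, a call lost with averaging (adjusted p = 0.42). Among members chosen after their values were seen, as Klf9, Sgk1 and Hsd11b1 were, Zbtb16, a zinc finger transcription factor, had a log2 change of 1.29 ± 0.049 (adjusted p = 1.6e-22). Cebpd and Cebpb, members of the C/EBP family of transcription factors, had log2 changes of 1.84 and 0.88. Per1, which belongs both to the receptor's targets and to the clock, rose from 48.6 ± 2.01 to 61.7 ± 3.38, and its call was lost with the vehicle libraries averaged (adjusted p = 0.096). The receptor itself, Nr3c1, fell. Its level was 159, 165, 171, 151 and 167 in the vehicle libraries and 121, 121, 129, 115 and 107 in the daily libraries, without overlap, a log2 change of -0.46 ± 0.052 (adjusted p = 4.1e-09). Pdk4, an inhibitor of pyruvate dehydrogenase that glucocorticoids are known to induce, also fell, from 1324 ± 21.3 to 932 ± 119. The third falling member, Hsd11b1, which reactivates glucocorticoids within cells, fell from 4.03 ± 0.495 to 1.72 ± 0.444, and that call was lost with the vehicle libraries averaged (adjusted p = 0.18). The other 3 members of the list were not called.

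**Figure D2:**
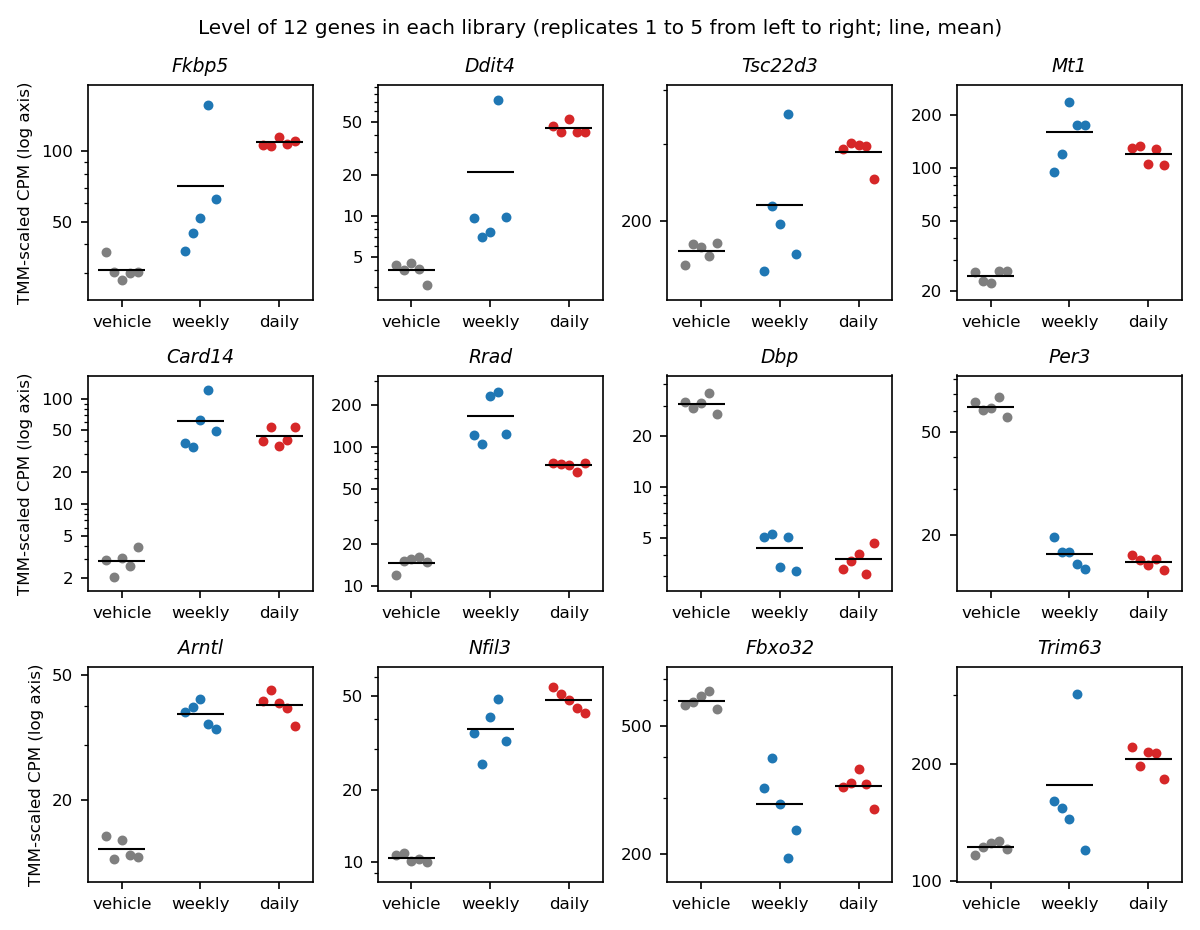
TMM-scaled CPM (log axis) of 12 genes in each vehicle, weekly and daily library, with a line at the mean of each group. For all 12 genes the 5 daily libraries lie outside the vehicle range, above it for 9 genes and below it for Dbp, Per3 and Fbxo32.

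Metallothioneins bind zinc and copper, and both the metal-sensing factor MTF1 and glucocorticoids are known to induce them. Mt1 was at 25.5, 22.8, 22.3, 25.9 and 25.9 in the vehicle libraries and 129, 132, 106, 128 and 104 in the daily libraries, and Mt2 was at 18.4, 18.01, 18.8, 21.1 and 16.1 in the vehicle libraries and 97.3, 100.5, 99.1, 129 and 80.9 in the daily libraries. Both were several times higher in every daily library, with log2 changes of 2.26 ± 0.069 and 2.42 ± 0.082 (adjusted p = 9.9e-25 and 8.5e-24). These genes are related neighbours, and how reads were divided between them was not tested. Slc39a14, which imports zinc, was at 23.2, 20.7, 20.2, 22.2 and 23.4 in the vehicle libraries and 98.8, 107, 82.3, 108 and 111 in the daily libraries, a log2 change of 2.18 ± 0.071 (adjusted p = 3.1e-24). Of the 17 members of the metallothionein and zinc transporter list, 5 rose and 2 fell, and with the vehicle libraries averaged there were 4 that rose and 0 that fell. Slc39a10, another importer, had a log2 change of 0.98 and Slc30a1, a zinc exporter, -0.37. Both were chosen after their values were seen, and the call of Slc30a1 was lost with the vehicle libraries averaged (adjusted p = 0.39).

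Promoter windows of RefSeq (GRCm38.p6, 250 bases before to 50 after each start) were available for 10002 of the genes tested. They are shown for genes whose letters match an element of a factor that bears on this treatment. Capitals mark matches to TGCGCNC or TGCACNC on either strand, the metal response element, in Mt1 (chr8:94178839-94179138, plus strand) and Mt2 (chr8:94172368-94172667, plus strand).
Mt1: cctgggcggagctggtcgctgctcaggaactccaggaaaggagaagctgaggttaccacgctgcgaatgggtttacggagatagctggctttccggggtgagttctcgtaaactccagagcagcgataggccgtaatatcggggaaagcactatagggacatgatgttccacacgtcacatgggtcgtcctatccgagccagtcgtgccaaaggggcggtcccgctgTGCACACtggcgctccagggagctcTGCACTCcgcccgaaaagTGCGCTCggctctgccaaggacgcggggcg
Mt2: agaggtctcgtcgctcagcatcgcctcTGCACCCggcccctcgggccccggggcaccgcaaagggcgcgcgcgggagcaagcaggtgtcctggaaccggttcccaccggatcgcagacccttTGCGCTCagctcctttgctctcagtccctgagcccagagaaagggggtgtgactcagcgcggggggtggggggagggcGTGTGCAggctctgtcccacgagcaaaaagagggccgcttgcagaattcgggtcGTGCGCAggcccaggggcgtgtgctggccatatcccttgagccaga
The Mt1 window held 3 matches and the Mt2 window 4, but so short a motif was present in 40.3% of the genes with a window. A glucocorticoid response element written as GNACA, any 3 bases and TGTNC was far rarer, at 0.41% of genes (41 of 10002). Among 25 listed receptor targets with a window, 3 held it (12%), namely Map3k6, Sgk1 and Mt1. In Mt1 the match is GGACATGATGTTC, which overlaps none of its metal response elements. Map3k6 (chr4:133240568-133240867, plus strand) and Sgk1 (chr10:21993640-21993939, plus strand, 1 of 6 windows) are shown with that match in capitals.
Map3k6: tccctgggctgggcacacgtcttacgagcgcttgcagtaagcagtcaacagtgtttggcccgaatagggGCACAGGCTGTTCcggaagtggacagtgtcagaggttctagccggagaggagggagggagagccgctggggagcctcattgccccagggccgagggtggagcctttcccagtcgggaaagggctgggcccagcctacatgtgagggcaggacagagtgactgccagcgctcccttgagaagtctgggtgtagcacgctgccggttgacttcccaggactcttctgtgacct
Sgk1: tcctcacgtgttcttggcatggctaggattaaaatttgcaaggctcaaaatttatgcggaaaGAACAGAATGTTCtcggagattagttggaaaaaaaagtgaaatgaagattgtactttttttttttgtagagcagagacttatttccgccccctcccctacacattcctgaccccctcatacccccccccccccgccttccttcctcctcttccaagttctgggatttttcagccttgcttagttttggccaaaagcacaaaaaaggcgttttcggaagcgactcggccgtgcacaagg
Sgk1, a kinase of ion transport, was at 62.3, 56.9, 69.9, 60.8 and 63.1 in the vehicle libraries and 79.4, 85.4, 74.2, 96.9 and 95.6 in the daily libraries, a log2 change of 0.46 ± 0.065 (adjusted p = 6.7e-07). No match was found in the windows of Fkbp5, Ddit4, Tsc22d3, Per1 or Klf9, which says only that these letters are not in those windows.

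The circadian clock list changed in a split pattern. The clock is a loop in which BMAL1 (Arntl) with CLOCK or NPAS2 activates Per, Cry and Nr1d genes, whose products repress it, and in which DBP, TEF and HLF act against NFIL3 on shared sites. Of 21 tested members, 6 rose and 12 fell (7 and 12 without daily 3), and with the vehicle libraries averaged there were 3 that rose and 8 that fell. On the activating side, Arntl was at 15.3, 12.97, 14.9, 13.4 and 13.1 in the vehicle libraries and 41.4, 44.8, 40.8, 39.3 and 34.4 in the daily libraries, a log2 change of 1.49 ± 0.082 (adjusted p = 1.9e-17). Npas2, chosen after its values were seen, had a log2 change of 1.56. On the repressing side, Per3 (chr4:151003652-151044665) was at 64.9, 60.6, 61.9, 68.0 and 56.8 in the vehicle libraries and 16.7, 16.1, 15.4, 16.2 and 14.7 in the daily libraries, a log2 change of -1.95 ± 0.070 (adjusted p = 4.7e-23). Per2, Nr1d1 and Nr1d2, chosen after their values were seen, had log2 changes of -1.24, -0.73 and -0.96. Cry1 and Per1 rose, with log2 changes of 0.66 and 0.34, and both calls were lost with the vehicle libraries averaged (adjusted p = 0.087 for Cry1).

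Among the output factors, Dbp (chr7:45705088-45710203) was at 31.7, 28.9, 31.1, 35.7 and 26.7 in the vehicle libraries and 3.29, 3.69, 4.03, 3.07 and 4.66 in the daily libraries. Every daily library was below every vehicle library, a log2 change of -2.89 ± 0.12 (adjusted p = 1.8e-21), which made it the largest fall among genes named by rule. Tef fell from 204 ± 6.83 to 108 ± 10.5, Bhlhe41, a repressor, from 27.5 ± 1.96 to 21.8 ± 0.927 and Hlf from 5.63 ± 0.657 to 2.30 ± 0.319. All 3 were chosen after their values were seen, and Hlf was called only with the vehicle libraries kept apart (adjusted p = 0.069 averaged), as was Bhlhe41 (0.30). Nfil3, their opponent, rose, with 10.7, 10.9, 10.1, 10.3 and 10.02 in the vehicle libraries and 54.4, 50.7, 48.1, 44.3 and 42.4 in the daily libraries and a log2 change of 2.15 ± 0.082 (adjusted p = 2.1e-22). The E-box CACGTG, to which BMAL1 and its partner bind, was found in the promoter windows of 4 of 16 clock genes with a window (25%), against 11.6% of all genes. Those of Dbp, Per3, Nr1d2, Hlf and Arntl held none. The D-box bound by DBP and its relatives, searched as TTATGTAA on both strands, was in 1 of the 16 (6.25%), against 0.700% of all genes. The hour of collection is not given for any library, and its part in the clock results was not tested. In the weekly libraries Dbp was at 3.19 to 5.25 and Arntl was at 33.6 to 41.9.

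Immediate early genes, which respond within minutes to signals, injury or handling, mostly rose. Of 28 tested members, 21 rose and 0 fell (median log2 change 0.72), and with the vehicle libraries averaged there were 12 that rose and 0 that fell. Socs3 (chr11:117966079-117970047), an inhibitor of cytokine signalling, was at 7.51, 11.9, 10.6, 11.3 and 12.1 in the vehicle libraries and 60.3, 69.9, 58.1, 55.1 and 67.0 in the daily libraries, a log2 change of 2.50 ± 0.095 (adjusted p = 2.1e-22). Btg2 rose from 22.0 ± 1.59 to 63.3 ± 6.48, and Zfp36, which destabilizes inflammatory messenger RNAs, from 12.9 ± 0.529 to 37.0 ± 3.15. The transcription factor genes Atf3, Fos, Junb and Egr1, chosen after their values were seen, had log2 changes of 1.79, 1.44, 1.08 and 0.77. Daily 3 was the lowest daily library for Fos, at 46.2 against 68.5 to 77.03 in the others, and without it the log2 change of Fos was 1.57.

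Heat shock genes did not follow as a group. Of 29 members, 7 rose and 4 fell (7 and 5 without daily 3), and with the vehicle libraries averaged there were 1 that rose and 3 that fell. Some small chaperones of the sarcomere fell, Hspb7 from 304 ± 9.36 to 205 ± 19.3 and Hspb8 from 349 ± 10.5 to 237 ± 15.4. Not all small chaperones on the list were called as falling. Dnajb4, a co-chaperone, rose from 46.9 ± 2.88 to 69.0 ± 6.05. Hspa1a, the inducible HSP70, was at 4.68, 6.24, 6.93, 5.66 and 6.33 in the vehicle libraries and 17.0, 12.8, 5.93, 13.3 and 9.90 in the daily libraries, and its groups overlapped at daily 3. Its adjusted p of 0.00014 became 0.14 with the vehicle libraries averaged. Hspa1a and Cryab, another small chaperone of the sarcomere (log2 change -0.42), were chosen after their values were seen.

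Fat cell genes were lower after daily prednisone. Of 22 adipocyte markers, 3 rose and 15 fell (2 and 15 without daily 3, median log2 change -0.81), and with the vehicle libraries averaged there were 1 that rose and 12 that fell. The summed level of the 22 was 2599 to 2788 TMM-scaled CPM in the vehicle libraries and 1741 to 2228 in the daily libraries, without overlap. That sum need not come from fat cells alone, since it includes Plin4, which muscle fibres also make. Adipoq (chr16:23146536-23158028), which encodes the hormone adiponectin, was at 30.3, 30.1, 31.1, 30.02 and 31.2 in the vehicle libraries and 18.8, 12.9, 10.4, 9.63 and 12.96 in the daily libraries, a log2 change of -1.25 ± 0.11 (adjusted p = 1.1e-11). Vehicle libraries were almost equal, and daily 1 was the highest of the daily libraries. Cfd, a complement protease secreted by fat cells, was at 139.9, 142, 142, 139 and 146 in the vehicle libraries and 75.8, 37.5, 46.0, 35.9 and 52.4 in the daily libraries, and daily 1 was again the highest. Its log2 change was -1.56 ± 0.10 (adjusted p = 3.3e-15). Pck1, an enzyme of glycerol and glucose synthesis, fell from 45.7 ± 4.06 to 15.9 ± 5.85, and Fabp4, a fatty acid carrier, from 188 ± 7.10 to 110.2 ± 12.9. Retn and Tusc5, chosen after their values were seen, had log2 changes of -1.63 and -1.67.

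All 3 markers that rose went against the list. Lep, the gene of the hormone leptin, was at 5.42, 7.81, 5.29, 5.89 and 7.37 in the vehicle libraries and 14.8, 5.66, 10.4, 7.38 and 8.01 in the daily libraries. These groups overlapped, its adjusted p of 0.041 became 0.084 without daily 3, and the vehicle-averaged value was 0.62. Ucp1, the uncoupling protein of brown fat, was low throughout, with 0.739, 0.600, 0.705, 0.566 and 0.115 in the vehicle libraries and 3.43, 0.922, 0.949, 1.02 and 1.75 in the daily libraries, and its call was lost with the vehicle libraries averaged (adjusted p = 0.44). Plin4, a lipid droplet coat protein that muscle fibres also make, had a log2 change of 0.53.

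Enzymes that build fatty acids did not share that fall uniformly. Of 26 members of the lipogenesis and NADPH supply list, 4 rose and 9 fell (5 and 7 without daily 3), and with the vehicle libraries averaged there were 2 that rose and 3 that fell. Fasn, fatty acid synthase, was at 211, 244, 234, 216 and 246 in the vehicle libraries and 298, 148, 142, 176 and 215 in the daily libraries. Daily 1 was the highest of all 10 libraries, daily 3 was the lowest, and the groups overlapped. The adjusted p of 0.034 became 0.14 without daily 3. Scd1, a desaturase chosen after its values were seen, also had daily 1 highest, with 438, 207, 228, 254 and 292 in the daily and 305 to 348 in the vehicle libraries, and its call was lost without daily 3 (adjusted p = 0.11). With the vehicle libraries averaged, neither was called. Acacb and Dgat2, which make malonyl-CoA and triglyceride, were likewise chosen after their values were seen and had log2 changes of -0.36 and -0.87. Gpam, the first enzyme of glycerolipid synthesis, fell from 218 ± 7.86 to 147 ± 11.2. Scd2 rose from 53.8 ± 3.60 to 93.5 ± 11.5, and Pnpla3, a lipid droplet protein, was at 5.67, 5.28, 4.46, 4.53 and 6.56 in the vehicle libraries and 27.8, 17.1, 20.6, 13.7 and 21.7 in the daily libraries, a log2 change of 1.81 ± 0.14 (adjusted p = 3.7e-13).

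Genes for taking up and burning fatty acids fell. Of 33 members, 2 rose and 21 fell (median log2 change -0.23), and with the vehicle libraries averaged there were 0 that rose and 9 that fell. The 2 that rose, Ppara and Ppard, are nuclear receptors that regulate the others rather than enzymes. Cd36, the fatty acid transporter, was at 352, 344, 366, 342 and 367 in the vehicle libraries and 237, 246, 247, 220.0 and 240.5 in the daily libraries, a log2 change of -0.57 ± 0.045 (adjusted p = 4.7e-13). Ppargc1b, a coactivator of mitochondrial genes, fell from 26.7 ± 1.31 to 15.4 ± 1.02, a log2 change of -0.78 ± 0.082 (adjusted p = 1.1e-09). Cpt1a, chosen after its values were seen, which encodes a carnitine transferase that admits fatty acids to mitochondria, was at 19.6, 26.2, 13.8, 19.3 and 24.9 in the daily libraries and 36.5 to 40.7 in the vehicle libraries. The related coactivator Ppargc1a was at 43.4, 43.2, 44.6, 42.8 and 48.6 in the vehicle libraries and 49.8, 39.9, 38.9, 40.6 and 32.3 in the daily libraries, and its change did not pass the test (adjusted p = 0.13).

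Nuclear genes of the respiratory chain showed smaller differences. Of 50 members, 0 rose and 22 fell (0 and 24 without daily 3, median log2 change -0.13), and with the vehicle libraries averaged there were 0 that rose and 1 that fell. Cox8b, a subunit of cytochrome oxidase, fell from 113 ± 5.96 to 82.3 ± 9.004, a log2 change of -0.46 ± 0.061 (adjusted p = 1.2e-07). When genes were split into 5 bins of equal size by exonic length, 33 of these lay in the bin of the shortest, where the median log2 change of all genes was -0.051, against 0.036 in the bin of the longest. The part of gene length was not tested. Of 13 mitochondrially encoded proteins, 6 rose and 0 fell (5 and 0 without daily 3), and with the vehicle libraries averaged there were 0 that rose and 0 that fell. A cytochrome oxidase subunit gene, mt-Co1, was at 15159 to 16249 in the vehicle and 18849 to 23227 in the daily libraries, a log2 change of 0.44 ± 0.075 (adjusted p = 1.7e-05). On the deposited scale 1 of the 13 rose.

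Enzymes of branched-chain amino acid breakdown, a pathway that KLF15 is known to drive, had 1 rising and 7 falling of 24 members. With the vehicle libraries averaged there were 0 that rose and 0 that fell. Aldh6a1, a late enzyme of valine breakdown, fell from 90.9 ± 4.22 to 70.1 ± 4.57, a log2 change of -0.37 ± 0.055 (adjusted p = 1.2e-06), and its adjusted p was 0.051 when averaged. Amino acid carriers were mixed. In the list of amino acid transport and glutamine genes, 9 rose and 2 fell of 23, and with the vehicle libraries averaged there were 4 that rose and 2 that fell. Slc7a8, a carrier of neutral amino acids, was at 7.27, 8.89, 6.69, 8.27 and 8.75 in the vehicle libraries and 19.5, 15.7, 20.6, 19.7 and 17.6 in the daily libraries, a log2 change of 1.17 ± 0.11 (adjusted p = 5.7e-11). Slc7a2, which carries arginine and lysine, was at 96.3, 99.2, 96.9, 97.3 and 93.7 in the vehicle libraries and 47.7, 48.7, 52.9, 48.6 and 48.3 in the daily libraries, a log2 change of -0.97 ± 0.053 (adjusted p = 1.9e-17). Neither gene's groups overlapped.

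Glycolysis and glycogen genes were mixed. Of 33 glycolysis and glycogen genes, 8 rose and 9 fell (8 and 11 without daily 3), and with the vehicle libraries averaged there were 4 that rose and 1 that fell. Ppp1r3c, a targeting subunit that promotes glycogen synthesis, was at 168, 161, 176, 159 and 169 in the vehicle libraries and 540.0, 525, 504, 525 and 421 in the daily libraries, a log2 change of 1.59 ± 0.052 (adjusted p = 3.7e-24). A pair of bifunctional enzymes that set the level of a glycolysis activator moved in opposite directions. Pfkfb3 was at 115, 116, 113, 118 and 111 in the vehicle libraries and 56.8, 64.5, 52.4, 57.4 and 56.2 in the daily libraries, a log2 change of -0.99 ± 0.055 (adjusted p = 1.9e-17). Pfkfb4 rose from 35.2 ± 3.63 to 63.9 ± 6.19, a log2 change of 0.85 ± 0.071 (adjusted p = 2.9e-12).

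Slow fibres express their own myosin and troponin genes, and quadriceps consists mostly of fast fibres. Of 16 slow fibre genes, 0 rose and 10 fell (median log2 change -0.52). Without daily 3, 3 rose and 10 fell, the rising ones being Ankrd2, Csrp3 and Myom3, and with the vehicle libraries averaged there were 0 that rose and 7 that fell. Myh7 (chr14:54970684-54994626), the slow myosin heavy chain, was at 402, 419.9, 416, 408 and 463 in the vehicle libraries and 55.1, 112, 46.0, 63.5 and 226 in the daily libraries. The daily libraries spread widely, with daily 5 the highest and daily 3 the lowest, yet all lay below the vehicle range. The log2 change was -2.33 ± 0.20 (adjusted p = 4.9e-12) and -2.11 without daily 3. Myl3, a slow myosin light chain, was at 56.7, 62.8, 57.3, 56.2 and 64.7 in the vehicle libraries and 8.4998, 9.48, 2.85, 6.15 and 23.3 in the daily libraries, a log2 change of -2.80 ± 0.23 (adjusted p = 1.3e-12), and -2.46 without daily 3. Myl2 kept the same order at its ends, with 30.02, 41.3, 20.4, 32.2 and 57.2 in the daily libraries, a log2 change of -1.82 ± 0.13 (adjusted p = 1.5e-14). Tnni1, slow troponin I, chosen after its values were seen, was at 10.8, 16.6, 9.96, 10.04 and 29.6 in the daily and 40.9 to 47.0 in the vehicle libraries. Which part of the quadriceps was sampled is not given, and its part in these values was not tested.

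Fast fibre genes had a smaller median change. Of 18, 1 rose and 12 fell (0 and 13 without daily 3, median log2 change -0.21), and with the vehicle libraries averaged there were 0 that rose and 2 that fell. Mylk4, a myosin light chain kinase, was at 594, 603, 600.0, 586 and 597 in the vehicle libraries and 356, 323, 406, 355 and 314 in the daily libraries, a log2 change of -0.77 ± 0.051 (adjusted p = 3.8e-15). Tnnc2, fast troponin C, fell from 917 ± 20.9 to 653 ± 70.1. The fast myosin heavy chains did not pass the test. Myh4 had a log2 change of -0.21 (adjusted p = 0.055), Myh1 of -0.065 (0.58) and Myh2 of 0.0060 (0.96). The sign for Myh2 turned on the deposited scale and that for Myh1 without daily 5. General muscle fibre markers had 0 rising and 9 falling of 13, with 1 falling when the vehicle libraries were averaged, and their median log2 change was -0.22.

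The atrophy programme split. Trim63 and Fbxo32 encode the ubiquitin ligases MuRF1 and atrogin-1, which rise together in many forms of muscle wasting under FoxO factors. Trim63 was at 117, 122, 126, 127 and 121 in the vehicle libraries and 220.0, 197, 214, 212 and 183 in the daily libraries, a log2 change of 0.74 ± 0.050 (adjusted p = 8.9e-15). Fbxo32 (chr15:58175879-58214932) was at 579, 592, 618, 642 and 564 in the vehicle libraries and 324, 333, 368, 330.1 and 276 in the daily libraries, a log2 change of -0.88 ± 0.053 (adjusted p = 3.3e-16). Every daily library lay above the vehicle range for Trim63 and below it for Fbxo32. Foxo1 rose from 23.9 ± 1.70 to 44.1 ± 2.15 and Foxo3 from 60.6 ± 3.78 to 92.8 ± 7.08. Mstn, myostatin, was at 20.8, 19.6, 23.0, 23.0 and 17.6 in the vehicle libraries and 16.5, 14.4, 19.9, 21.1 and 18.1 in the daily libraries, and its log2 change of -0.21 did not pass the test (adjusted p = 0.10). In the whole list of 24, 5 rose and 7 fell (4 and 7 without daily 3), and with the vehicle libraries averaged there were 4 that rose and 3 that fell. Autophagy genes had 4 rising and 8 falling of 30 (4 and 10 without daily 3), and with the vehicle libraries averaged 0 and 1, the latter being Map1lc3a, an autophagosome coat gene, which fell from 72.0 ± 5.93 to 47.8 ± 3.13.

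Of 31 genes of insulin, IGF1 and mTOR signalling, 8 rose and 9 fell (9 and 10 without daily 3), and with the vehicle libraries averaged there were 3 that rose and 3 that fell. Igf1, the growth factor, was at 48.9, 43.1, 45.2, 43.3 and 45.4 in the vehicle libraries and 23.0, 21.6, 20.4, 20.3 and 28.1 in the daily libraries, a log2 change of -0.99 ± 0.078 (adjusted p = 6.3e-13). Irs1, an adaptor of the insulin receptor, was at 187, 175, 161, 167 and 172 in the vehicle libraries and 95.005, 90.3, 104, 88.1 and 77.4 in the daily libraries, a log2 change of -0.92 ± 0.058 (adjusted p = 8.7e-16). Neither gene had a daily library within the vehicle range. Trib1, a pseudokinase gene, rose from 19.7 ± 2.50 to 42.6 ± 5.40. Igf2, a related growth factor chosen after its values were seen, rose from 53.1 ± 3.43 to 76.4 ± 6.52.

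Ribosomal protein genes fell almost as one. Of 60, 1 rose and 58 fell (median log2 change -0.50), the same counts without daily 3, and with the vehicle libraries averaged there were 0 that rose and 44 that fell. The rising member was Rpl24. Their summed level was 5814 to 6217 in the vehicle and 4281 to 4361 in the daily libraries. Rplp0 (chr5:115559467-115563727), a stalk protein of the large subunit, was at 121, 120.0, 124, 127 and 124 in the vehicle libraries and 82.4, 74.5, 73.5, 75.4 and 78.6 in the daily libraries, a log2 change of -0.68 ± 0.050 (adjusted p = 9.9e-14). Rps4x fell from 164 ± 5.55 to 108 ± 1.01. Of the 60 genes 36 lie in the bin of the shortest genes, and the part of length was not tested. Proteasome subunits had 0 rising and 20 falling of 31 (0 and 22 without daily 3, median log2 change -0.20), with 0 and 2 when the vehicle libraries were averaged. Psmd8, a regulatory subunit, fell from 128 ± 3.92 to 83.5 ± 5.67, a log2 change of -0.62 ± 0.052 (adjusted p = 3.9e-12), and Psmb1, a core subunit, from 56.5 ± 3.64 to 41.5 ± 3.45.

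**Figure D3:**
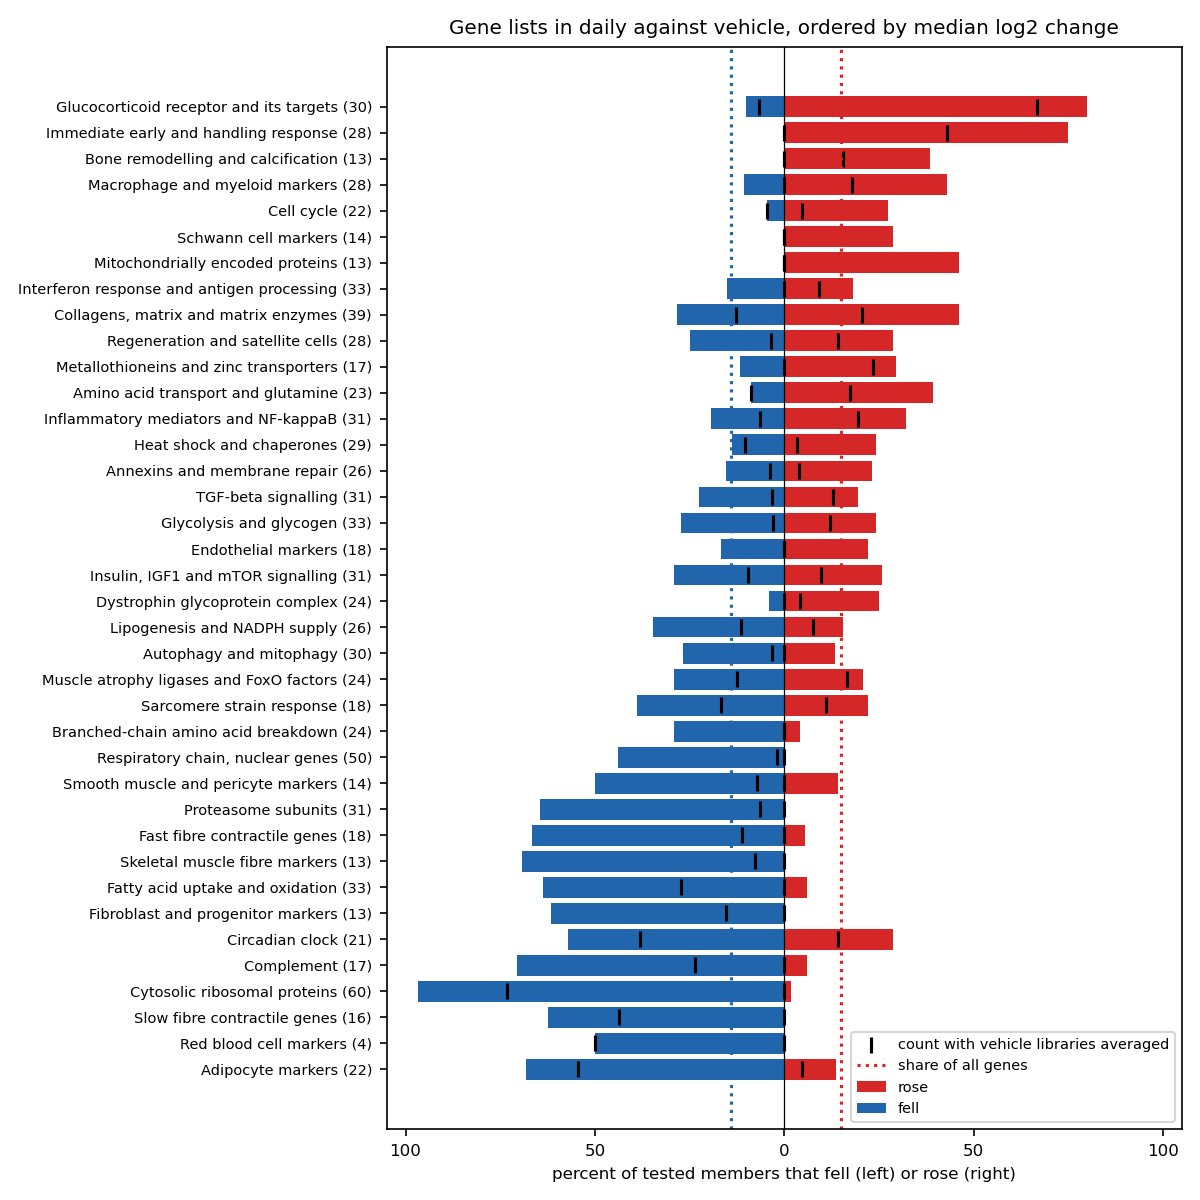
Percent of the tested members of each gene list that rose (right, red) or fell (left, blue) in daily against vehicle libraries, ordered by median log2 change. Lists with 4 or more tested are drawn, with the number tested in brackets, apart from ribosomal RNA and lists chosen after values were seen. Black marks give the same share with the vehicle libraries averaged, and dotted lines the share of all genes, 15% and 14.2%. Receptor targets stand at the top and adipocyte markers at the bottom, and ribosomal proteins have the longest bar on the left.

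Regeneration genes were mixed. Of 28, 8 rose and 7 fell (10 and 7 without daily 3), and with the vehicle libraries averaged there were 4 that rose and 1 that fell. Myh3, the embryonic myosin of newly formed fibres, was at 31.3, 35.2, 36.1, 34.8 and 32.8 in the vehicle libraries and 78.1, 114, 56.7, 79.7 and 135 in the daily libraries. Daily 3 was the lowest daily library and daily 5 the highest, all above the vehicle range, a log2 change of 1.37 ± 0.12 (adjusted p = 5.2e-12). Sdc4, a proteoglycan of satellite cells, rose from 35.2 ± 1.29 to 75.2 ± 3.84. Igfn1, a sarcomeric protein, fell from 381 ± 12.7 to 205 ± 21.0, a log2 change of -0.90 ± 0.052 (adjusted p = 1.1e-16). Strain response genes had 4 rising and 7 falling of 18 (6 and 6 without daily 3, 2 and 3 averaged), with Xirp1, an actin-binding protein of damaged fibres, up from 358 ± 12.3 to 529 ± 73.7 and Ankrd23, a titin-associated protein, down from 336 ± 8.63 to 228 ± 26.9. Ankrd1, a relative of the latter, rose from 149.5 ± 3.53 to 199.8 ± 15.4.

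The membrane complex that dystrophin anchors was called about as often as all genes. Of 24, 6 rose and 1 fell (5 and 1 without daily 3), so 29.2% were called with daily 3, the same share as over all genes, and with the vehicle libraries averaged there were 1 that rose and 0 that fell. On the deposited scale 0 rose and 0 fell. Lama2, the laminin chain of the fibre's basement membrane, was at 129, 146, 146, 139.8 and 139.9 in the vehicle libraries and 197, 197, 201, 183 and 179 in the daily libraries, a log2 change of 0.45 ± 0.049 (adjusted p = 1.7e-09). Dmd itself, whose transcript carries the mdx mutation, was at 530.0, 495, 449.5, 567 and 426 in the vehicle libraries and 567, 624, 509.9, 548 and 549 in the daily libraries, and its groups overlapped (log2 change 0.19, adjusted p = 0.013, 0.47 averaged). Utrn, the dystrophin relative utrophin, was at 219.6, 206, 199, 213 and 199 in the vehicle libraries and 214, 204, 194, 203 and 216 in the daily libraries, with a log2 change of -0.0074 (adjusted p = 0.93) whose sign turned without daily 3. For membrane repair, 6 rose and 4 fell of 26, against 15% and 14.2% of all genes. With the vehicle libraries averaged there were 1 that rose and 1 that fell. Ahnak2, a large scaffold protein, fell from 175 ± 8.62 to 117 ± 8.26. Dysf, dysferlin, rose from 166 ± 6.09 to 202 ± 17.5, a call lost with averaging (adjusted p = 0.16). Anxa1, annexin A1, was at 36.7, 32.8, 42.0, 47.9 and 47.7 in the daily libraries, overlapping the vehicle range of 30.3 to 36.5, and its adjusted p of 0.0056 became 0.43 when averaged. Its relatives Anxa2 and Anxa5 rose from 57.3 ± 1.63 to 77.5 ± 7.51 and from 43.0 ± 2.12 to 58.3 ± 6.61 (adjusted p = 0.055 for Anxa5 when averaged), whereas Anxa6 had a log2 change of 0.035 (adjusted p = 0.63).

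Matrix genes went both ways. Of 39, 18 rose and 11 fell, and with the vehicle libraries averaged there were 8 that rose and 5 that fell. Col1a1 (chr11:94936224-94953042), a chain of the main collagen of scar and tendon, was at 422, 437, 421, 404 and 447 in the vehicle libraries and 831, 958, 965, 1071 and 1180.0 in the daily libraries. Its lowest daily value was well above the highest vehicle value, a log2 change of 1.22 ± 0.058 (adjusted p = 1.9e-19). Col1a2, its partner chain, chosen after its values were seen, rose from 517 ± 14.4 to 789 ± 115. Col5a1 rose from 122 ± 7.89 to 206 ± 27.1 and Col4a2, of basement membranes, from 169 ± 7.35 to 251 ± 3.58. Dcn, decorin, was at 189.7, 197, 203, 192 and 209.7 in the vehicle libraries and 127, 155, 161, 128 and 122 in the daily libraries, a log2 change of -0.52 ± 0.059 (adjusted p = 4.7e-09), and Fmod, fibromodulin, chosen after its values were seen, fell from 118 ± 4.87 to 62.0 ± 18.5. Dpt, dermatopontin, and Gsn, gelsolin, fell from 26.6 ± 1.45 to 19.03 ± 1.90 and from 575 ± 22.7 to 426 ± 29.3 (adjusted p = 0.12 for Dpt when averaged). Fibroblast markers fell as well, with 0 rising and 8 falling of 13 and 0 and 2 when averaged, and their summed level was 1152 to 1245 in the vehicle and 895 to 988 in the daily libraries. Dcn and Lum belong to both lists. The part of fibroblast number in the collagen values was not tested.

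Among 31 genes of TGF-beta signalling, which drives fibrosis, 6 rose and 7 fell (6 and 6 without daily 3), and with the vehicle libraries averaged there were 4 that rose and 1 that fell. Tgfbr2, a receptor subunit, fell from 80.2 ± 3.21 to 57.7 ± 3.42, and Bmp1, a procollagen protease, rose from 31.2 ± 3.64 to 47.6 ± 4.52. Bone remodelling genes, of which 13 of 20 listed were tested, had 5 rising and 0 falling (2 and 0 averaged). Spp1 (chr5:104435118-104441050), osteopontin, which macrophages make in damaged muscle, was at 14.5, 11.4, 13.6, 13.8 and 12.4 in the vehicle libraries and 61.8, 73.3, 132, 184 and 209 in the daily libraries. The daily libraries spread widely, daily 1 lowest and daily 5 highest, and all were above the vehicle range. Its log2 change was 3.12 ± 0.18 (adjusted p = 3.3e-17) and 3.08 without daily 3. Alpl, alkaline phosphatase, rose from 3.03 ± 0.522 to 11.4 ± 2.83, and Ctsk, a collagen-degrading cathepsin, from 22.2 ± 2.47 to 31.0 ± 5.89, the latter not with averaging (adjusted p = 0.16).

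Inflammatory genes did not move one way. Of 31 mediators and NF-kappaB genes, 10 rose and 6 fell, and with the vehicle libraries averaged there were 6 that rose and 2 that fell. Nfkbia, which encodes the inhibitor that holds NF-kappaB in the cytoplasm, was at 16.4, 17.2, 14.4, 15.7 and 15.4 in the vehicle libraries and 32.8, 31.5, 37.5, 35.9 and 35.4 in the daily libraries, a log2 change of 1.10 ± 0.079 (adjusted p = 4.8e-14). Il4ra, a receptor chain for interleukins of type-2 responses, was at 24.8, 26.5, 29.0, 29.7 and 33.4 in the vehicle libraries and 82.5, 76.2, 72.3, 80.5 and 102 in the daily libraries, a log2 change of 1.51 ± 0.077 (adjusted p = 1.8e-18). Osmr, the oncostatin M receptor, rose from 30.5 ± 0.734 to 68.1 ± 5.34. Nfkbiz, a nuclear cofactor of NF-kappaB chosen after its values were seen, rose from 8.32 ± 1.24 to 18.4 ± 2.64. Ccl8, a chemokine chosen after its values were seen, had 6.28, 7.81, 6.46, 6.23 and 7.95 in the vehicle libraries and 1.23, 3.55, 3.79, 1.64 and 1.31 in the daily libraries, a log2 change of -1.51 ± 0.21 (adjusted p = 4.4e-07).

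Complement genes were lower. Of 17, 1 rose and 12 fell (median log2 change -0.47), and with the vehicle libraries averaged there were 0 that rose and 4 that fell. C3 (chr17:57203970-57228136), the central component, was at 179, 199, 195, 176 and 189 in the vehicle libraries and 94.0, 86.0, 90.8, 84.0 and 85.3 in the daily libraries, a log2 change of -1.09 ± 0.050 (adjusted p = 7.3e-20). Every daily library was below the vehicle range by a wide gap. Serping1, the C1 inhibitor, fell from 56.2 ± 3.90 to 35.3 ± 4.12. C1qa and C1qc, chains of the recognition molecule that macrophages make, fell from 25.1 ± 1.87 to 16.4 ± 2.92 and from 19.6 ± 0.824 to 11.3 ± 1.38, and averaging ended the call of C1qa (adjusted p = 0.066). No member of the list had a log2 change above 0.31. C7, a component of the membrane attack complex that is not on the list, rose. It was at 1.23, 0.841, 0.705, 0.793 and 0.691 in the vehicle libraries and 5.35, 5.79, 6.17, 6.15 and 4.08 in the daily libraries. C1qa, C1qc and C7 were chosen after their values were seen, and the call of C7 was kept with the vehicle libraries averaged (adjusted p = 5.3e-05). Cfd is both a complement and a fat cell gene and fell with both lists.

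Macrophage and myeloid markers had more members rising than falling. Of 28, 12 rose and 3 fell (14 rose and 3 fell without daily 3), and with the vehicle libraries averaged there were 5 that rose and 0 that fell. Their summed level was 693 to 731 in the vehicle and 773 to 1269.6 in the daily libraries. Itgax, an integrin of activated myeloid cells, was at 17.5, 15.01, 14.3, 14.95 and 14.3 in the vehicle libraries and 28.8, 25.9, 34.2, 42.2 and 44.0 in the daily libraries, a log2 change of 1.15 ± 0.10 (adjusted p = 2.3e-11). Ctss, a lysosomal protease, rose from 36.7 ± 2.47 to 65.6 ± 16.3, and Cd14, a coreceptor for bacterial lipopolysaccharide chosen after its values were seen, from 6.39 ± 0.682 to 15.3 ± 5.43. Csf1r, the growth factor receptor that defines macrophages, chosen after its values were seen, fell from 68.7 ± 4.95 to 51.8 ± 7.52, a call lost with averaging (adjusted p = 0.099). Interferon response and antigen processing genes had 6 rising and 5 falling of 33 (6 and 4 without daily 3, 3 and 0 averaged). These counts lie near the shares over all genes, 15% rising and 14.2% falling. Iigp1, an interferon-induced GTPase, rose from 10.3 ± 1.57 to 16.6 ± 1.77, and Stat2, a transducer of interferon signals, from 14.8 ± 0.897 to 23.9 ± 4.10.

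**Figure D4:**
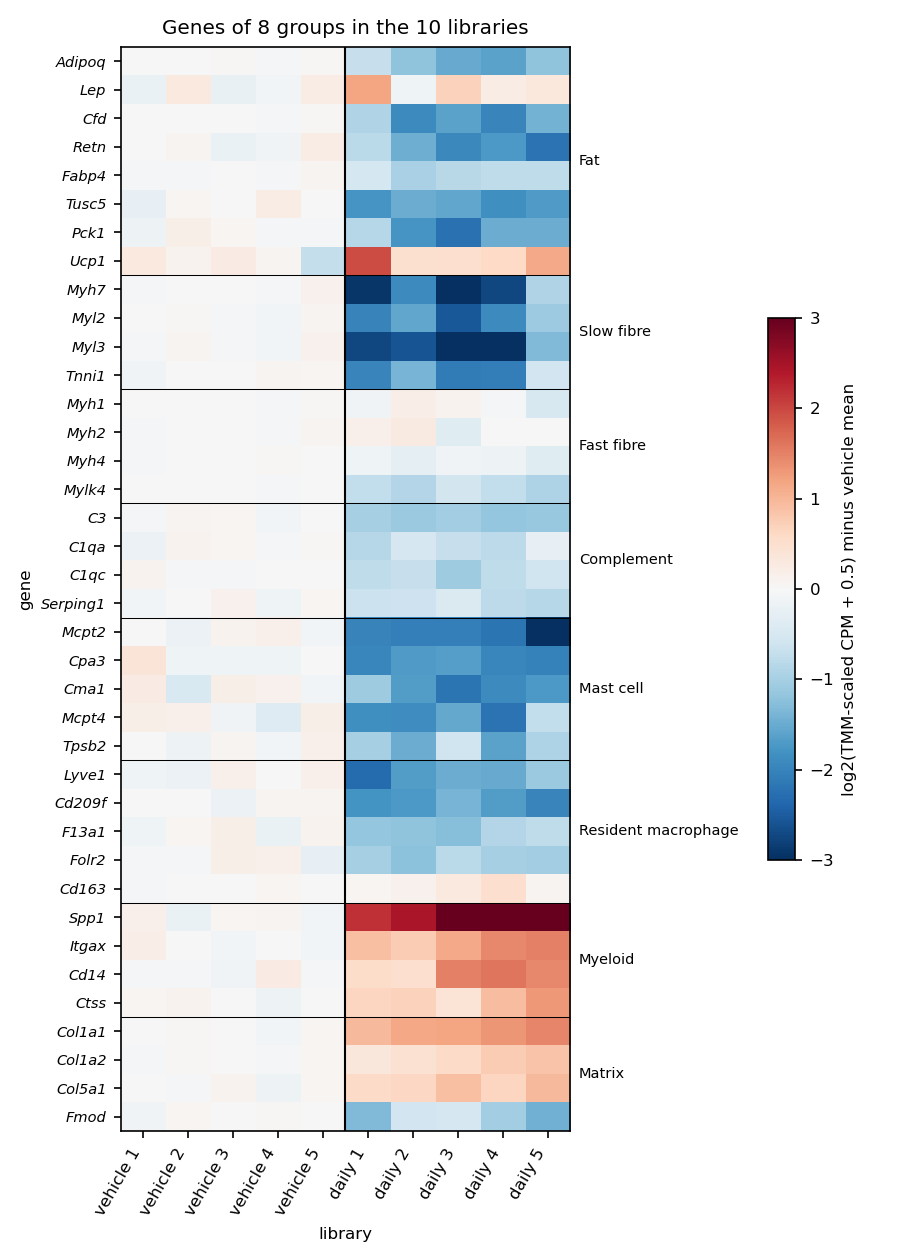
Log2(TMM-scaled CPM + 0.5) minus the vehicle mean (colour, capped at 3 in either direction) for genes of 8 groups, in the 5 vehicle and 5 daily libraries. Vehicle columns are near white, slow fibre genes are least reduced in daily 5, and Spp1 is raised most in daily 3, 4 and 5. Mast cell and resident macrophage genes were chosen after their values were seen.

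Markers of other cell types in the tissue gave these values. Of 18 endothelial markers, 4 rose and 3 fell (0 and 0 averaged), against 15% and 14.2% of all genes. The summed level of these markers was 567 to 598 in the vehicle and 563 to 612 in the daily libraries. Of 14 smooth muscle and pericyte markers, 2 rose and 7 fell (0 and 1 averaged). Among those that fell, the pericyte gene Rgs5 went from 182 ± 7.80 to 116 ± 6.65. Schwann cell markers had 4 rising and 0 falling of 14 (0 and 0 averaged), with Mbp, a myelin protein gene, up from 15.5 ± 2.19 to 22.3 ± 2.09, a call lost with averaging (adjusted p = 0.068). The haemoglobin genes Hba-a1 and Hbb-bs fell from 32.1 ± 2.27 to 11.1 ± 1.15 and from 42.8 ± 0.974 to 16.6 ± 1.80, while the erythroid enzyme gene Alas2 was at 12.2, 12.1, 9.01, 8.81 and 11.4 in the daily and 7.83 to 10.1 in the vehicle libraries and did not pass the test (adjusted p = 0.18). Blood left in the tissue was not measured otherwise, and its part in the haemoglobin values was not tested. Only 1 of 12 neutrophil markers and 2 of 18 lymphocyte markers reached the level needed for testing. The neutrophil gene, Csf3r, was at 3.98, 3.69, 1.90, 3.69 and 5.24 in the daily libraries (adjusted p = 0.35). Cell cycle genes had 6 rising and 1 falling of 22 (1 and 1 averaged), and Cenpf, a gene of dividing cells, rose from 3.03 ± 0.553 to 6.08 ± 1.51, a call lost with averaging (adjusted p = 0.11). The falling gene was Ccnd2, cyclin D2, from 30.4 ± 2.95 to 18.5 ± 2.66.

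Where daily differed from weekly prednisone was tested in a fit of all 15 libraries. Weekly libraries were scattered (biological coefficient of variation 29.4%, and 17.0% without weekly 4, the shallowest at 2780768 reads). In that fit 292 genes (2.08%) were higher and 371 (2.64%) lower in daily than in weekly libraries, 663 in all (4.72%). Without weekly 4 these were 900 (6.40%) and 979 (6.96%), without daily 3 they were 186 and 232, and on the deposited scale 68 and 1159. Against vehicle it called 1278 genes in daily (9.09%), of which 790 rose (5.62%), and 1394 in weekly (9.92%), with 5.73% of genes higher and 4.18% lower. Of 26 lipogenesis genes, 0 were higher and 18 lower in daily, and of 22 adipocyte markers 0 were higher and 18 lower (23 and 20 lower without weekly 4). Fasn was at 811 to 5265 in the weekly libraries, against 142 to 298 in the daily libraries, a daily minus weekly log2 difference of -3.41 ± 0.40 (adjusted p = 0.00027). Adipoq was at 36.0 to 142 in weekly libraries, above the vehicle range, and the log2 difference was -2.30 ± 0.28 (adjusted p = 0.00027). C3, lower than vehicle in all daily libraries, was at 131 to 293 in weekly libraries, and the log2 difference was -1.18 (adjusted p = 0.00030).

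Fatty acid oxidation and respiratory chain genes had 12 of 33 and 12 of 50 members lower in daily than weekly and 0 higher, and without weekly 4 these were 25 and 39, with 1 and 0 higher. Of 30 receptor list members, 8 were higher and 2 lower in daily libraries, and without weekly 4 these were 12 and 5. Ddit4 was at 9.60, 7.05, 7.68, 72.1 and 9.80 in weekly libraries, weekly 4 standing apart. The log2 difference was 1.74 ± 0.43 (adjusted p = 0.025), and 2.34 without weekly 4 (1.1e-10). Arrdc2 was at 3.20 to 19.7, with a log2 difference of 1.65 (adjusted p = 0.0034), and Klf15 at 16.7 to 31.9, with 0.70 (0.0053). Foxo1, at 25.04 to 32.5 in weekly libraries, was higher in daily by 0.62 (adjusted p = 0.00071). Rrad was higher in weekly libraries, at 106 to 251, a log2 difference of -1.08 (adjusted p = 0.0034). For Card14, Mt1, Mt2, Dbp, Per3 and Socs3 the difference did not pass the test (adjusted p = 0.53, 0.29, 0.58, 0.53, 0.63 and 0.13), which does not show that the regimens acted alike. Mt1, for example, had a log2 difference of -0.35 ± 0.18. Both regimens are set against the same vehicle libraries in the plot by regimen.

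**Figure D5:**
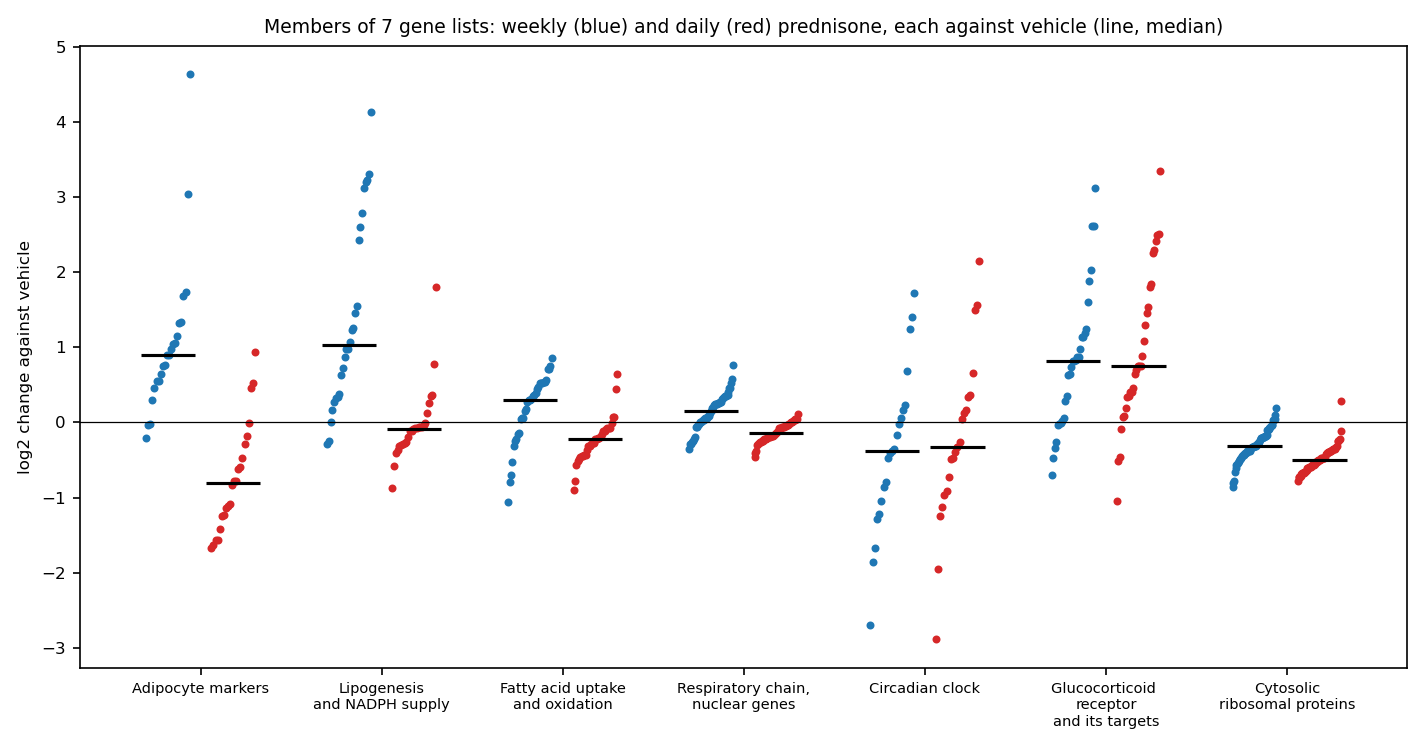
Log2 change against vehicle (vertical axis) of each member of 7 gene lists, in weekly (blue) and daily (red) libraries of the 15-library fit, with a line at the median. The comparisons share the vehicle libraries. Adipocyte markers have a median of 0.90 in weekly and -0.81 in daily, and lipogenesis genes 1.03 and -0.083.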

How the data were processed

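Stranded total RNA libraries from about 30 mg of quadriceps were sequenced, per the labels' protocols. The authors aligned reads with TopHat2 2.1.0 to mm10 (GRCm38), counted them with HTSeq and scaled them with edgeR, per the submitters' processing notes. The sources used here do not say whether counting used strand. The deposited table names its values RPKM, but they are CPM: dividing by the value of 1 read gave whole reads, within 0.01, for 222090 of 222090 values. Of 14806 features, 534 without a symbol (0.275% to 0.446% of each library) and 213 with 1 CPM in fewer than 5 libraries were left out, which left 14059. Columns were matched to samples by name. CPM were scaled by TMM over all 15 libraries (edgeR 4.0.16, R 4.3.3) and tested as log2(CPM + 0.5) with limma 3.58.1, with a trend and Benjamini-Hochberg adjustment, so fold changes of low genes are understated. Only daily and vehicle libraries entered the fit, because weekly libraries scatter more, and TMM was used because ribosomal RNA fills much of daily 3. A gene rose or fell where its adjusted p was under 0.05. Count tests used edgeR and DESeq2 1.42.0 on the recovered reads. On simulated counts of 14059 genes for daily against vehicle, the limma test recovered 64.2% of 1.5-fold, 89.7% of 2-fold and 96.7% of 4-fold changes. The simulation gave every gene of a group the same biological coefficient of variation, so recovery in the data may differ. These percentages do not describe false calls.

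Same-numbered libraries came from no stated pairing. The genes compared and the 41 gene lists were chosen with earlier results of these data known. Named genes are the 12 largest rises and 12 largest falls of at least 2 CPM that were called also without daily 3, apart from predicted genes and ribosomal RNA, the 3 members of each list with the smallest p, and a list of prior interest. Some genes are not reported here. Others are said to be chosen after their values were seen. List counts carry no test of the list. Means are given with SD over 5 libraries, log2 changes with their SE, and positions in GRCm38. Promoter sequences are from RefSeq. Alternatives covered scaling, pseudocount, filters, libraries left out, the vehicle libraries averaged, a replicate block and other tools.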

Additional observations from a re-analysis of the deposited data

Results flagged for a closer look

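In a group of 5 libraries, a library is singled out here when its gap to the nearest other library exceeds 0.71 of the whole range (Dixon's critical value for 5). This held for 27 of 374 groups (7.22%), and chance alone singles out about 1 in 20. Values are TMM-scaled CPM, followed by the range of the other 4 libraries of the group.

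Vehicle 1 stood above the other vehicle libraries for Cpa3 (8.38 against 5.64 to 6.22), F7 (1.11 against 0.227 to 0.360), Fkbp5 (37.0 against 28.1 to 30.4) and Itgax (17.5 against 14.3 to 15.01). It stood below them for Ccnd2 (25.2 against 30.9 to 32.4), Cox8b (103 against 113 to 117), Hspb8 (331 against 352 to 358), Rmrp (1614 against 1929 to 1941), Rrad (11.9 against 14.97 to 16.1) and Socs3 (7.51 against 10.6 to 12.1). Vehicle 4 was high for Arrdc2 (5.32 against 3.64 to 4.06) and Cd14 (7.59 against 5.87 to 6.22). Vehicle 2 was low for Gadd45g (4.92 against 7.83 to 8.499), and vehicle 5 was low for Igfn1 (359 against 383 to 392) and Ucp1 (0.115 against 0.566 to 0.739).

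Daily 3 was singled out for its ribosomal RNA signal, with 20.5% of reads from Gm26924 against 0.140% to 3.02% in the other daily libraries, 7.79% from Lars2 against 0.130% to 1.61%, and a TMM factor of 0.653 against 0.952 to 1.03. It was also low for Fos (46.2 against 68.5 to 77.03) and high for Mrgprb1 (1.66 against 0.395 to 0.582) and Slc7a2 (52.9 against 47.7 to 48.7). Daily 5 was low for Mcpt2 (0.146 against 1.02 to 1.23), Ppp1r3c (421 against 504 to 540.0) and Tsc22d3 (249 against 292 to 302). Daily 4 was high for Mrc1 (94.0 against 81.3 to 84.1) and low for Rrad (66.0 against 74.0 to 77.3), and daily 1 was high for Rn7sk (3776 against 3465 to 3548).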

How the results depend on the processing

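Of 182 genes named in the text, 171 were called by limma as reported, 109 of these under every alternative, 167 without daily 3 and 138 with the vehicle libraries averaged, and 0 changed direction while called. The counts of 2108 rising and 2001 falling genes became 688 and 997 on the deposited scale, 790 and 488 with all 15 libraries in 1 fit, 488 and 308 with the vehicle libraries averaged, 549 and 352 with these averaged and daily 3 left out, and 579 and 406 when tested against a change of 1.2-fold. Leaving out 1 library at a time gave 1836 to 2138 rising and 1716 to 2062 falling. Other normalizations, pseudocounts, filters, array weights, edgeR on the recovered reads (2219 and 2019) and DESeq2 (1847 and 1759) stayed within 1.5 times. Against weekly, 292 higher and 371 lower genes became 900 and 979 without weekly 4, 186 and 232 without daily 3, and 68 and 1159 on the deposited scale. With the replicate number as a block, 2105 rose and 2013 fell against vehicle, and 221 were higher and 306 lower than weekly; same-numbered libraries did not vary together, so the block has no basis in the labels. Signs turned for genes that were not called under that setting. The log2 change of Anxa6 was -0.053 on the deposited scale. That of Myh1 was 0.037 without daily 5, with a range of -0.13 to 0.037 over single libraries left out. That of Myh2 was -0.083 on the deposited scale, -0.025 after quantile normalization, -0.0033 with DESeq2 size factors, -0.031, -0.058, -0.0011 and -0.0098 without daily 1, daily 2, vehicle 1 or vehicle 4, and -0.058 to 0.098 over all single libraries left out. That of Utrn was 0.050 on the deposited scale without daily 3, 0.054 after quantile normalization, 0.015 with the vehicle libraries averaged and daily 3 left out, 0.015, 0.013 and 0.0021 without daily 3, vehicle 1 or vehicle 4, and -0.024 to 0.015 over all single libraries left out. Genes near the 1 CPM filter rest on few reads in each library, and a difference there is the least detectable.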

Other observations

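Genes of mast cells, granule-filled immune cells, were among the largest falls. Mcpt2, a mast cell protease, was at 6.40, 5.64, 7.05, 7.25 and 6.10 in the vehicle libraries and 1.23, 1.18, 1.19, 1.02 and 0.146 in the daily libraries, a log2 change of -2.34 ± 0.23 (adjusted p = 1.2e-10) by limma. Daily 5 was the lowest, and all daily libraries lay below the vehicle range. The value of daily 5 lies under the floor of 3 reads, which is 0.416 CPM in that library before TMM scaling, so the fold is approximate. Cpa3, the granule carboxypeptidase, was at 8.38, 5.64, 5.64, 5.66 and 6.22 in the vehicle libraries and 1.23, 1.58, 1.66, 1.23 and 1.16 in the daily libraries, and Cma1, chymase, fell from 8.43 ± 1.61 to 2.28 ± 0.860. A list of 8 mast cell genes was chosen after these values were seen, so it is a description with no test. Its median log2 change was -1.63, and its summed level was 38.2 to 45.6 in the vehicle and 14.96 to 19.2 in the daily libraries. Within it Mcpt4, another chymase, was at 0.685, 0.658, 0.949, 0.410 and 2.04 in the daily and 2.72 to 4.31 in the vehicle libraries. Tpsb2, tryptase, was at 1.51, 0.922, 2.13, 0.820 and 1.60 and 3.12 to 3.92. Mrgprb1 had a log2 change of -1.62 and Kit, the stem cell factor receptor, of -0.72. With the vehicle libraries averaged, Mcpt2, Cpa3 and Cma1 were called and the other 5 genes were not. Gata2, a transcription factor also made by other cells, had a log2 change of 0.39 and groups that overlapped. 

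Genes of resident macrophages went against the macrophage marker list of the report. A list of 14, also chosen after values were seen and given with no test, had a median log2 change of -1.03. Lyve1, a hyaluronan receptor of vessel-associated macrophages and lymphatic vessels, was at 10.6, 10.2, 12.9, 11.4 and 12.8 in the vehicle and 1.92, 3.29, 3.79, 3.69 and 5.10 in the daily libraries. Cd209f, a lectin, was at 2.19, 2.37, 3.08, 2.46 and 1.89 in the daily and 7.87 to 9.51 in the vehicle libraries. F13a1, a coagulation factor subunit, had a log2 change of -1.05, Folr2, a folate receptor, of -1.01 and Fcna, a ficolin, of -1.41. The groups overlapped for Fcna. With the vehicle libraries averaged, Lyve1, Cd209f and F13a1 were called, while Folr2 and Fcna were not (limma adjusted p = 0.089 and 0.20). The scavenger receptors differed less or the other way, with log2 changes of -0.093 for Mrc1, -0.15 for Stab1 and 0.21 for Cd163, a haemoglobin receptor that glucocorticoids are known to induce. Spp1, Itgax and Cd14 rose in the same libraries.

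Small structured RNAs fell as well. Snord17, a small nucleolar RNA, was at 518, 605, 579, 522 and 603 in the vehicle libraries and 126, 86.6, 108, 174 and 87.8 in the daily libraries, a log2 change of -2.32 ± 0.099 (adjusted p = 6.9e-21) by limma. Rnu3a, the U3 small nucleolar RNA, was at 18.7, 24.3, 23.6, 25.3 and 29.0 in the vehicle libraries and 5.07, 4.08, 4.03, 7.58 and 5.39 in the daily libraries, a log2 change of -2.13 ± 0.13 (adjusted p = 9.2e-16). The groups did not overlap for either gene. Within a list of 7 chosen after values were seen, which gets no test, the median log2 change was -1.08. Snora73a, Rpph1, Rmrp and Rn7sk had log2 changes of -1.47, -1.08, -0.60 and -0.47. In weekly libraries Snord17 was at 33.0 to 2312. These RNAs are short, without a poly(A) tail and partly repeated in the genome. The part of fragment length and of read placement was not tested.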
